A study of Mus musculus with 7 samples.

Results

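The 10 genes described here encode transcription factors of the oligodendrocyte lineage, in medial prefrontal cortex of mice sampled after retrieval of a remote memory. They are Olig1, Olig2, Nkx2-2, Sox8, Sox10, Tcf7l2, Zfp488, Nkx6-2, Myrf and St18, and all 10 were found among the 17732 genes of the authors' deposited table, each under 1 Ensembl ID. The genes were selected on their known role and from the log2 fold changes and p-values of that table, in which St18 stood out, so every difference between the groups is given here as a description and not as a test of the set. Per the labels, the mice were wild-type males of the inbred strain 129SvEv, and 3 libraries came from treatment CFC and 4 from treatment SC. What CFC and SC stand for and the age of the mice are not in the labels, which also do not say whether each library came from a separate animal. The p-values then measure the spread between these libraries, which may be technical. One comparison of the groups was deposited, with a mean normalized count over the 7 libraries, a log2 fold change, its standard error, a p-value and an adjusted p-value for each gene. Which group is the numerator is not stated, so differences are given by sign only. A gene is termed called where its deposited adjusted p-value was under 0.05.

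Oligodendrocytes wrap axons in myelin, and they arise from precursor cells that persist in the adult cortex. A cascade of transcription factors sets their fate. Olig2 and Sox10 act through the whole lineage, from precursor to myelinating cell, whereas Myrf is switched on as a cell leaves the precursor stage and drives the genes of the myelin sheath. In bulk tissue fewer cells of a type and less RNA per cell cannot be told apart.

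Promoter sequence was in hand for 6 of the 10 genes, from RefSeq on GRCm38.p6, which is the mm10 assembly named in the submitters' processing notes. The 250 bases before the RefSeq transcription start of 4 of them are shown, because Sox8 and Nkx6-2 had 95% intervals above 0 and Olig2 and Nkx2-2 did not. The gene spans of GENCODE M21 differ from these starts for Nkx2-2 and Olig2. The Nkx2-2 sequence lies wholly inside its gene span, chr2:147177546-147194243. That of Olig2 runs past the GENCODE start of the gene, at base 91225457. Capitals mark matches to any of the motifs searched, on either strand, and each sequence runs 5′ to 3′ towards the gene.
Olig2 (chr16:91225300-91225549, plus strand): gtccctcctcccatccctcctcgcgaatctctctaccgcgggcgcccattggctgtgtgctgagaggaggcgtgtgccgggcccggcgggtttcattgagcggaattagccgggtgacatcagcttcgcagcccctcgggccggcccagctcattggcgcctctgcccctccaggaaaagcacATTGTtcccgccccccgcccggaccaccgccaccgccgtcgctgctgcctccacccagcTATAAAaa
Nkx2-2 (chr2:147186403-147186652, minus strand): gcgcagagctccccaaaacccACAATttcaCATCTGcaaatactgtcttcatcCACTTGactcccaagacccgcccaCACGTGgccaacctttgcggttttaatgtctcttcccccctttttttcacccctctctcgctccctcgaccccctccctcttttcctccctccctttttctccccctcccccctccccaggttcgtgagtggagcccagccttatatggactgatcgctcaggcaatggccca
Sox8 (chr17:25570687-25570936, minus strand): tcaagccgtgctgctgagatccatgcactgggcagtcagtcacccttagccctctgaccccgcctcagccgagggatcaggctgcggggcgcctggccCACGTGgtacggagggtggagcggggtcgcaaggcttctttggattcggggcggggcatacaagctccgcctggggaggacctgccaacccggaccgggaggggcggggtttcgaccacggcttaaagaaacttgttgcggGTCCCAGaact
Nkx6-2 (chr7:139582798-139583047, minus strand): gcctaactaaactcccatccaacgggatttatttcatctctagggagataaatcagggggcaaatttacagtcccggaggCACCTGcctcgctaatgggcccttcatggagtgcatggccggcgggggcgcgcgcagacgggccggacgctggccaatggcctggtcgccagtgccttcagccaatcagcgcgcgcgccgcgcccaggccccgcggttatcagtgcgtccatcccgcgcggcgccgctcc

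The Olig2 promoter held the SOX core motif ACAAT once, on the opposite strand at bases -67 to -63 from the RefSeq start. It also held the bases TATAAA, searched as the TATA-box motif, at -8 to -3. These matches lie past the GENCODE start of Olig2. Whether TATAAA acts as a TATA box there was not tested. The SOX core was present in 27.7% of all 32851 promoters of the same length in the RefSeq table, and TATAAA at any position in 12.4%. The Nkx2-2 promoter held the SOX core at bases -229 to -225 and 3 E-boxes, CANNTG, the class of site that OLIG and other basic helix-loop-helix proteins bind. Its E-box at bases -197 to -192 is also the NKX2 motif CAAGTG read on the opposite strand, a motif present in 11.6% of promoters. The Sox8 promoter held 1 E-box and, at bases -11 to -5, the MYRF motif CTGGNAC on the opposite strand, which 16.1% of promoters held. Nkx6-2 held 1 E-box, which 66.2% of promoters held. All 4 sequences had more G and C than the median promoter, from 56.4% in Nkx2-2 to 66.8% in Olig2, against 52.4%. CG pairs numbered 26 in Nkx6-2, 22 in Olig2, 18 in Sox8 and 8 in Nkx2-2, where the median promoter held 6. Of the other motifs searched, ACAAAG, shared by SOX and TCF proteins, was found in 1 of 2 Tcf7l2 promoters and in none of the other 5 genes' promoters. No member's promoter in hand held the E-boxes CATATG or CAGCTG, the TCF motifs CTTTGAA or CTTTGAT, the MYT1-family motif AAAGTTT and the NKX6 motif TAATTA. The promoters of Olig1, Sox10, Myrf and St18 were not analysed here.

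Apart from Nkx2-2, the factors of the whole lineage or its precursors were the most abundant. Divided by exon length, the mean normalized count of Olig1 was 403 per kb, computed from the authors' deposited table, and those of Sox8, Sox10 and Olig2 were 223, 152 and 113 per kb. Myrf followed at 62.5 per kb. Nkx6-2, Nkx2-2, Zfp488 and Tcf7l2 lay at 23.9, 21, 13.7 and 12.6 per kb. St18 was the lowest of the 10 at 11.2 per kb, a level that placed it at percentile 3.78 of the 13060 genes with an adjusted p-value. The median of those genes was 113.5 per kb, so 3 of the 10 factors lay above it. Values per library were not analysed here, so it is not known which neighbours in this order differ beyond their spread. The exon length is the union over annotated transcripts in GENCODE M21, and it can understate the level of genes with many transcript forms, such as Tcf7l2 with 22 and St18 with 13.

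**Figure D1:**
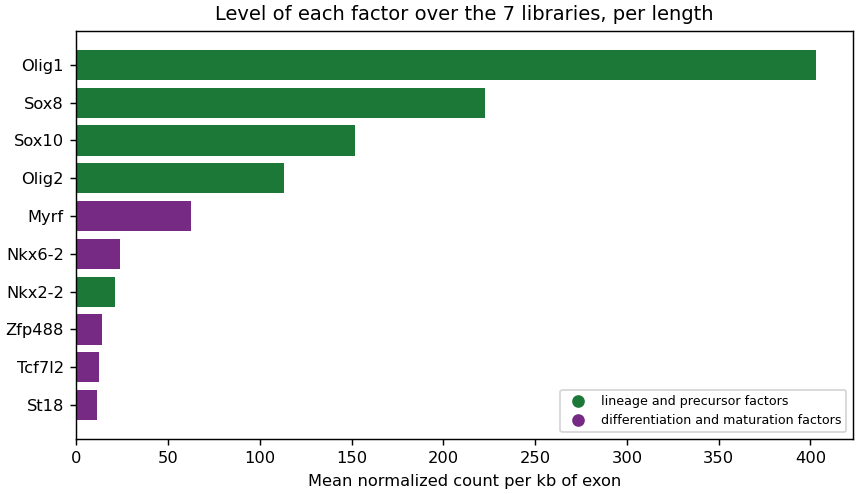
Mean normalized count per kb of exon (horizontal axis) for each of the 10 factors, averaged by the authors over 7 libraries, with green bars for factors of the whole lineage or its precursors and purple bars for factors of differentiation. Olig1 is highest at 403 per kb and St18 lowest at 11.2 per kb.

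All 10 factors had a positive sign in the authors' deposited table, with log2 fold changes from 0.08 in Nkx2-2 to 1.35 in St18, with a median of 0.34. Of the 13060 genes that have an adjusted p-value, 49.4% were positive and the median was -0.0017. St18 was the 1 factor called, beside 0.513% of all genes called with either sign and 0.368% called with a positive sign. An unadjusted p-value under 0.05 was listed for 5 of the 10 factors, all positive, beside 8.1% of all genes with either sign and 4.56% with a positive sign. Because the same comparison entered the choice of the genes, nothing is read from these counts. The plot of log2 fold changes shows that the 95% intervals of 5 factors lay above 0 and those of the other 5 crossed it.

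**Figure D2:**
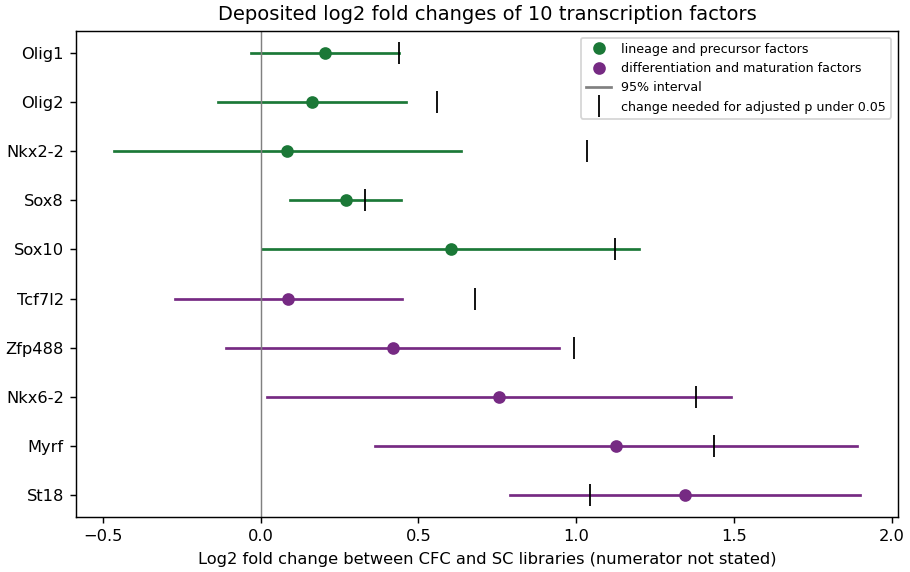
Log2 fold change between the CFC and SC libraries (horizontal axis, numerator not stated) of each factor as a point with its 95% interval as a line. The black tick is the log2 fold change that each gene's own standard error would have required for an adjusted p-value under 0.05, and only the point of St18, at 1.35, lies beyond its tick, at 1.04.

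Olig1 and Olig2, basic helix-loop-helix proteins of which Olig2 specifies the lineage and Olig1 supports its maturation, had small positive values. The log2 fold change of Olig1 (ENSMUSG00000046160) was 0.20 ± 0.12 (SE, adjusted p = 0.785, the authors' deposited table), from a mean count of 871. For Olig2 (ENSMUSG00000039830) it was 0.16 ± 0.15 (SE, adjusted p = 0.966, the authors' deposited table), from a mean count of 286. Their 95% intervals, -0.03 to 0.44 and -0.14 to 0.46, allowed at most a fold of 1.35 and 1.38. The pair are neighbours on chromosome 16 (chr16:91269772-91271933 and chr16:91225457-91228677, both on the plus strand), 41.1 kb apart. The next protein-coding gene beyond Olig1, the interferon receptor gene Ifnar2, had a log2 fold change of -0.23 ± 0.14 (SE, adjusted p = 0.821, the authors' deposited table).

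Nkx2-2 (ENSMUSG00000027434, chr2:147177546-147194243), a homeodomain factor that helps precursors enter differentiation, had the value closest to 0. Its log2 fold change was 0.08 ± 0.28 (SE, adjusted p = 0.999, the authors' deposited table). The mean count was only 60.4, and the 95% interval from -0.47 to 0.63 covers changes of either sign. Exons of Nkx2-2 share 9.67% of their bases with the antisense gene Nkx2-2os, whose log2 fold change was 0.27 ± 0.49 (SE, the authors' deposited table).

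Sox8 and Sox10 belong to the SoxE family, whose member Sox10 directly activates myelin genes and Myrf. The log2 fold change of Sox8 (ENSMUSG00000024176, chr17:25565892-25570686) was 0.27 ± 0.09 (SE, the authors' deposited table), a fold of 1.21 with a 95% interval from 1.07 to 1.36. Its unadjusted p-value of 0.00263 ranked 219 of 17729 in the authors' deposited table, and its adjusted p-value was 0.186. Sox10 (ENSMUSG00000033006, chr15:79154908-79165240) had more than double that log2 value, 0.60, in the authors' deposited table, yet its standard error of 0.31 was larger too, and its adjusted p-value was 0.642. The 95% interval of Sox10 began at a log2 value of 0.0042 and reached 2.30 as a fold, and so contained that of Sox8. The third SoxE gene, Sox9, which marks astrocytes in the adult cortex, had a log2 fold change of -0.15 ± 0.10 (SE, adjusted p = 0.826, the authors' deposited table).

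Tcf7l2 (ENSMUSG00000024985, chr19:55741820-55933654), a Wnt effector that is transiently high in newly formed oligodendrocytes, had a log2 fold change of 0.09 ± 0.18 (SE, adjusted p = 0.999, the authors' deposited table). The interval from -0.27 to 0.45 lay below the values of Sox10, Nkx6-2, Myrf and St18. For Zfp488 (ENSMUSG00000044519, chr14:33967070-33978764), a zinc-finger corepressor that works with Olig2, the log2 fold change was 0.42 ± 0.27 (SE, adjusted p = 0.833, the authors' deposited table). Its interval from -0.11 to 0.95 crossed 0 at a mean count of 59.0. Nkx6-2 (ENSMUSG00000041309, chr7:139579376-139582797), a homeodomain factor of mature oligodendrocytes, had a log2 fold change of 0.76 ± 0.37 (SE, adjusted p = 0.623, the authors' deposited table). It was the least covered of the 10, with a mean count of 45.6, and 12.9% of its exon bases lie in exons of Inpp5a on the opposite strand. Inpp5a itself had a log2 fold change of -0.12 ± 0.09 (SE, the authors' deposited table), the opposite sign to Nkx6-2.

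Myrf and St18 had the highest values, and these were the 2 factors with a fold above 2. Myrf (ENSMUSG00000036098, chr19:10208272-10240748) encodes a membrane-bound protein that cleaves itself to release a transcription factor needed to make and keep myelin. Its log2 fold change was 1.13 ± 0.39 (SE, adjusted p = 0.234, the authors' deposited table), a fold of 2.18 with a 95% interval from 1.28 to 3.70. St18 (ENSMUSG00000033740, chr1:6487231-6860940, plus strand) encodes a zinc-finger protein of the family of Myt1 and Myt1l. The log2 fold change of St18 was 1.35 ± 0.28 (SE, the authors' deposited table), a fold of 2.54 with a 95% interval from 1.73 to 3.73. Its unadjusted p-value of 2.02e-06 was the 19th lowest of the table (rank 19), and its adjusted p-value was 0.00154 in the authors' deposited table. Tested against a change of 1.2-fold in place of no change, St18 had an adjusted p-value of 0.355 and was not called, in a table where 2 genes then were. Only 3 genes called positive had a log2 fold change at or above that of St18, itself included. The others were the deep-layer cortical markers Ccn2, at 2.10 ± 0.37, and Nxph4, at 1.98 ± 0.36 (log2, SE, the authors' deposited table).

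The interval of St18, from 0.79 to 1.90, lay wholly above those of Olig1, Olig2, Nkx2-2, Sox8 and Tcf7l2 and overlapped those of Sox10, Zfp488, Nkx6-2 and Myrf. Differences between 2 factors could not be tested, since the table gives no covariance between genes. Among the 5 factors of the whole lineage or its precursors (Olig1, Olig2, Nkx2-2, Sox8 and Sox10) the median log2 fold change was 0.20, and among the 5 of differentiation and maturation it was 0.76. The values of the 2 groups overlapped, since Sox10 at 0.60 lay above Tcf7l2 at 0.09 and Zfp488 at 0.42. Both medians come from values in the authors' deposited table.

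Genes next to the factors on the chromosomes were not called. The nearest protein-coding gene on each side, where it was no member, gave 18 genes, of which 13 had an adjusted p-value, and 0 were called. In the authors' deposited table the log2 fold changes of these 13 ran from -0.23 to 0.26, and 0 of the 13 had an unadjusted p-value under 0.05. The other 5, with mean counts from 1.64 to 13.8, ran from -0.67 (Nrap, beside Tcf7l2) to 1.03 (Alkal1, beside St18), with SEs from 0.48 to 1.39 (log2, the authors' deposited table). Myrf lies between Tmem258, 0.448 kb away, and Dagla, 4.52 kb away, which the authors' deposited table lists at log2 fold changes of 0.08 and -0.13. Around St18, Rb1cc1 and Pcmtd1 were at 0.07 ± 0.07 and -0.03 ± 0.07 (log2, SE, the authors' deposited table), and the closer gene Alkal1, with a mean count of only 5.12, was at 1.03 ± 0.86, the sign of St18.

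The standard errors of St18 and Myrf were above the usual for their abundance to different degrees. Each was divided by the median standard error of the 200 genes nearest in mean count, so that a ratio of 1 is usual for the abundance. The ratio was 4.23 for Myrf and 3.14 for Sox10, and for the other 8 factors it lay between 1.032 in Tcf7l2 and 1.503 in Olig1, all computed from the authors' deposited table. St18 had a ratio of 1.30. A ratio above 2 was found in 1.85% of all genes and in 22 of 24 myelin genes listed as targets of these factors, whose median was 4.41.

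Standard errors of all genes are larger at low counts, so St18 and Nkx6-2 were set beside Gjb1, a gap-junction gene of the myelin list with a similarly low mean count. Gjb1, at a mean count of 46.0, had an SE of 0.58 (the authors' deposited table), which gave a ratio of 2.18. Nkx6-2, at a mean count of 45.6, had a ratio of 1.39, and St18, at a mean count of 72.3, one of 1.30. The smallest absolute Wald statistic of a called gene, the log2 fold change over its standard error, was 3.68. At its own standard error Myrf would have needed a log2 fold change of 1.44 to reach it, above its 1.13, and St18 needed 1.04. With a usual error for its abundance Sox8 needed just 0.33, against its 0.27. Which libraries carry the spread of Myrf and Sox10 was not tested.

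**Figure D3:**
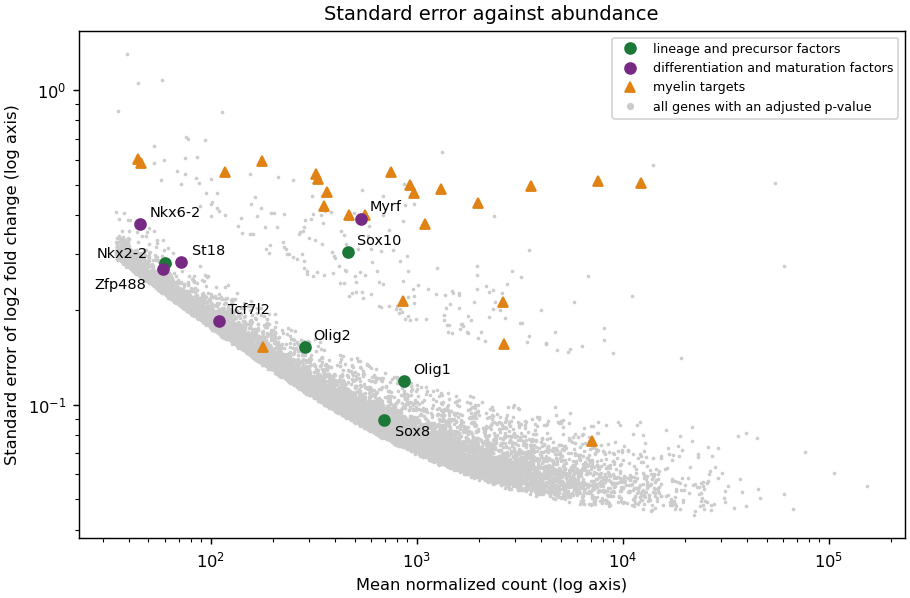
Standard error of the log2 fold change (vertical log axis) against mean normalized count (horizontal log axis) for the 13060 genes with an adjusted p-value in grey, the 10 factors in green and purple, and the myelin targets as orange triangles. Myrf and Sox10 lie above the grey band with ratios of 4.23 and 3.14, near the myelin targets, and St18 lies at the upper edge of the band with a ratio of 1.30.

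None of the relatives of the factors was called. Of 16 genes of the same families, 10 were in the table and 7 had an adjusted p-value, of which 0 were called and 0 had an unadjusted p-value under 0.05, with a median log2 fold change of 0.0099. The paralogs of St18 are Myt1, a factor of precursors and newborn neurons, and Myt1l, which keeps neuronal identity. Myt1 had a log2 fold change of 0.26 ± 0.14 (SE, adjusted p = 0.719, the authors' deposited table), and Myt1l had 0.08 ± 0.05 (SE, adjusted p = 0.823). The interval of Myt1, from -0.02 to 0.53, ended below that of St18. The Wnt effectors Tcf7, Tcf7l1 and Lef1 stood at 0.0099, 0.10 and -0.0030 (log2, the authors' deposited table), with SEs from 0.21 to 0.27 and each with an adjusted p of 0.999. Prdm8, a relative of Zfp488, had a log2 fold change of -0.16 ± 0.12 (SE, the authors' deposited table). Myrfl, Nkx6-3 and Nkx2-1 had mean counts of 13.5, 1.39 and 4.80, too low for an adjusted p-value in the authors' deposited table. Their log2 fold changes there were -0.15 ± 0.49, 0.59 ± 1.56 and 0.60 ± 0.87 (SE), and each 95% interval held 0. Olig3, Nkx6-1, Nkx2-3, Nkx2-4, Nkx2-5 and Nkx2-9 were not analysed here.

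Partners that the factors work with were likewise not called. Among 14 partners and cofactors, all with an adjusted p-value, 10 were positive and 4 negative, 0 were called, and the median log2 fold change was 0.05 in the authors' deposited table. The 1 gene with an unadjusted p-value under 0.05 was Chd7, a chromatin remodeller that acts with Sox10. Its log2 fold change was 0.36 ± 0.13 (SE, adjusted p = 0.290, the authors' deposited table). The histone deacetylases Hdac3 and Hdac2 stood at -0.12 and 0.09 (log2, the authors' deposited table), and the acetyltransferase Ep300 had 0.11. The E proteins Tcf3, Tcf4 and Tcf12, with which Olig1 and Olig2 pair, had 0.07, -0.03 and 0.06 in the authors' deposited table.

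Among 12 genes that hold back differentiation, 11 had an adjusted p-value, 8 positive and 3 negative, 0 of them called and 2 with an unadjusted p-value under 0.05, both positive, and the median log2 fold change was 0.06 in the authors' deposited table. The lowest p-values were those of Id4, which sequesters E proteins, and Tmem98, which binds Myrf and blocks its cleavage. Id4 had a log2 fold change of 0.34 ± 0.11 (SE, adjusted p = 0.187, the authors' deposited table). Tmem98 had a higher value, 0.70 ± 0.29 (SE, adjusted p = 0.439, the authors' deposited table), and so the same sign as Myrf. The authors' deposited table lists Fbxw7, which marks Myrf for degradation, at -0.10 and the receptor Notch1 at 0.19 (log2).

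Of 10 other transcription factors of the lineage, 9 had an adjusted p-value, 8 positive and 1 negative, 0 were called, 3 positive genes had an unadjusted p-value under 0.05, and the median was 0.11 (log2, the authors' deposited table). Klf13 and Tfeb, the latter a regulator of lysosomes that restrains myelination, stood at 0.13 and 0.44 (log2, the authors' deposited table), and Klf9 at 0.09.

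Myrf and St18, at 1.13 and 1.35, lay above the median log2 fold change of the myelin genes that such factors activate, and all 10 factors lay within the range of those genes. All 24 of those genes were positive, with a median log2 fold change of 1.08, a lowest of 0.05 and a highest of 1.67 in the authors' deposited table. The 1 called was Ndrg1, a stress-linked gene of myelinating glia, with a log2 fold change of 0.81 ± 0.21 (SE, adjusted p = 0.0361, the authors' deposited table). The myelin gene Mobp had 1.67 ± 0.49 (SE, adjusted p = 0.105, the authors' deposited table). Cntn2 and Ermn, an adhesion protein of myelinated axons and a cytoskeletal protein of oligodendrocytes, stood at 0.44 and 1.46 (log2, the authors' deposited table). An unadjusted p-value under 0.05 was listed for 19 of the 24, all positive. Nfasc, Rffl and Plekhh1, genes bound by Myrf, stood at 0.08, 0.28 and 0.87 (log2, the authors' deposited table), each below the median of the list. Their standard error ratios were 1.31, 1.07 and 3.95.

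The values of Olig1, Olig2, Nkx2-2 and Tcf7l2 lay within the range of precursor genes. The 8 precursor markers, among them Pdgfra and Cspg4, ranged from -0.17 to 0.22 (log2 fold changes, the authors' deposited table), their median was 0.05, and 0 were called or had an unadjusted p-value under 0.05. The 6 markers of newly formed cells, which include Tcf7l2 itself, divided. Enpp6 and Bcas1 were at 0.97 ± 0.47 and 0.96 ± 0.50 (log2, SE, the authors' deposited table), whereas Tcf7l2, Gpr17, Itpr2 and Fyn lay between -0.15 and 0.09. None of the 6 was called by the authors' deposited adjusted p-value, and 1 had an unadjusted p-value under 0.05. In the plot by gene list the median of the 10 factors, 0.34, lies between those of the precursor genes and the myelin targets, while the single factors overlap both lists.

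**Figure D4:**
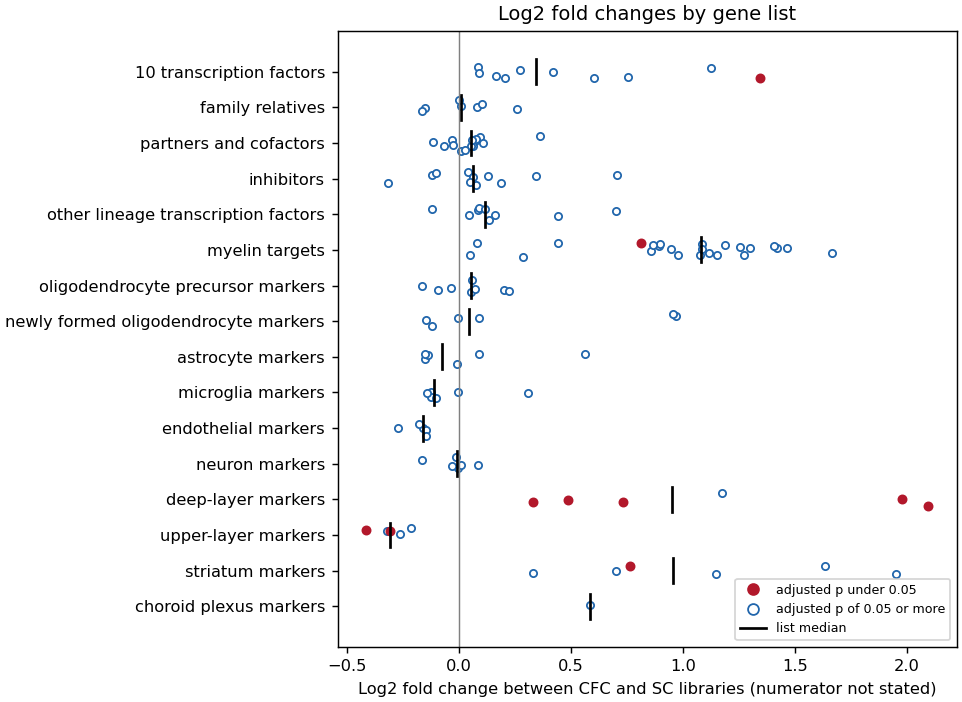
Log2 fold changes (horizontal axis, numerator not stated) of the genes with an adjusted p-value in each list, with red points for called genes, open points for the others and a black bar at each list's median. The 10 factors spread from 0.08 to 1.35, the precursor markers from -0.17 to 0.22 and the myelin targets from 0.05 to 1.67, and deep-layer and striatum markers also lie on the positive side.

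Markers of other cells and regions were read beside these values. Neuron markers, with mean counts from 4095 to 39800 (the authors' deposited table), were abundant, their median log2 fold change was -0.01, and 0 of 6 were called. Astrocyte, microglia and endothelial markers had medians of -0.07, -0.11 and -0.16, with 0 called of 6, 6 and 5. Astrocyte markers ran from -0.15 to 0.56, with 2 positive and 4 negative (log2, the authors' deposited table). The highest was Gfap, at 0.56 ± 0.43 (SE), with a standard error ratio of 5.66. Microglia markers ran from -0.14 to 0.31 (Aif1), with 1 positive and 5 negative. Endothelial markers ran from -0.27 to -0.15. An unadjusted p-value under 0.05, with a negative sign, was listed for 1 neuron, 1 astrocyte, 1 microglia and 2 endothelial markers. Deep-layer cortical markers were positive in 6 of 6 with 5 called (Foxp2, Tle4, Hs3st4, Ccn2 and Nxph4) and a median of 0.95 (log2, the authors' deposited table). Their standard error ratios ran from 1.14 to 2.72 with a median of 1.42, beside 1.30 for St18, and 2 of the 6 were above 2. Upper-layer markers were negative in 5 of 5 with 2 called (Rasgrf2 and Otof) and a median of -0.31. Striatum markers were positive in 6 of 6 with 1 called, Drd1, and a median of 0.95, and 5 of the 6 had a standard error ratio above 2. Of the choroid plexus markers Kl was at 0.59 (log2, adjusted p = 0.322, the authors' deposited table), Ttr had no p-value, and Folr1 was not analysed here. Deep-layer and striatum markers thus had the sign of St18 and Myrf, and their part in those values was not tested.

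Reads of overlapping genes cannot be assigned without the strand setting of the counting, which is not given in the sources used here. Among the 10 factors this concerns Nkx2-2 and Nkx6-2, Sox8, which shares 10.6% of its exon bases with the antisense gene 2810468N07Rik, and Olig1, which shares 7.26% with Gm15966. The exons of Olig2, Sox10, Tcf7l2, Zfp488, Myrf and St18 overlap no exon of another gene in GENCODE M21. Of the genes named from the other lists, Prdm8, Rffl, Plekhh1, Bcas1, Myt1l, Lef1, Tcf7l1, Id4, Notch1, Ndrg1, Mobp, Ermn, Ep300, Pdgfra, Gpr17, Hs3st4 and Ccn2 have such overlaps.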

How the data were processed

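Polyadenylated RNA was sequenced from medial prefrontal cortex in 3 CFC and 4 SC libraries. Trimmomatic, Subread and DESeq2 and the build mm10 are named in the submitters' processing notes, without versions. The strand setting and annotation are not given in the sources used here. Per the file headers, the deposited table lists per gene a mean normalized count (a signal averaged by the authors), a log2 fold change with its standard error (SE), a Wald score, and p-values before and after adjustment. The depth of single libraries is unknown, and no value per library was analysed here, so the planned count test gave way to the deposited p-values, as the design provided.

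A 95% interval spans the normal quantile times the SE on either side of the log2 fold change. Standard errors were compared with the median of the 200 genes nearest in mean count. The functions were tested on simulated data. Exons came from GENCODE M21 (GRCm38), which held 17726 of the 17732 IDs, and promoters from RefSeq. Python 3.11.15, pandas 2.3.3 and SciPy 1.17.1 were used.

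The members and lists were chosen with earlier results of these data known. The text names all members and relatives, and of the lists of partners, inhibitors, other lineage factors and myelin targets the called genes and, to a total of 4, those with the lowest p-values; marker lists are given by range and counts, with their called genes or a few examples, and some items are not reported here. Genes named beyond this rule, such as Gjb1, Nfasc, Rffl, Plekhh1, the E proteins, Enpp6, Bcas1 and the examples from marker lists, were chosen after their values were seen. Alternatives were another threshold, other filters on mean count and another null hypothesis.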

Additional observations from a re-analysis of the deposited data

How the results depend on the processing

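Over all genes 67 were called, and a threshold of 0.1 gave 101 and testing against a 1.2-fold change in place of no change gave 2, which are looser and stricter by construction. The other 2 alternatives, no filter on the mean count and a mean count of at least 100, gave 60 and 68. Of the 10 factors, 1 was called, and the count was 0 with a mean count of at least 100, which removes St18 and 3 other factors, and 0 against the 1.2-fold null, where the adjusted p-value of St18 was 0.355. The 5 factors with an unadjusted p-value under 0.05 became 3 and 2 under the same settings, and 6 at a threshold of 0.1. No other factor passed under any of these 4 alternatives, and no direction can change with them. Of the counts of called genes for lists with any call, 5 became lower and 11 stayed within 1.5 times. For lists with 0 called, the 44 counts under these settings were also 0, which says nothing about stability. No paired analysis was possible because values per library were not analysed here, and for the same reason leaving out single libraries and other size factors were not run. Whether 1 library decides a value was not tested. The low mean counts of St18, Zfp488, Nkx2-2, Nkx6-2 and Tcf7l2, from 45.6 to 110 in the authors' deposited table, limit what could be detected.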
